A study of Mus musculus with 24 samples.

Results

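The question was whether losing NEMO and KEAP1 together in hepatocytes changes gene expression in whole liver by more or by less than the sum of losing each alone. That quantity, the interaction, is the level in the double knockout minus the level in each single knockout plus the level in control. The change with NEMO loss is NEMO knockout minus control with KEAP1 present, and double knockout minus KEAP1 knockout with KEAP1 deleted. On the log2 scale an interaction of 0 means that these changes are equal. A negative interaction means that the double knockout lies below the sum. All 12 liver arrays were used, 3 for each of 4 genotypes, out of 24 arrays in the series; the other 12 are of cultured primary hepatocytes. In all, 18820 genes were tested.

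The animals were 8-week-old male mice. Controls carried floxed NEMO (NEMOf/f), and no Cre and no floxed KEAP1 allele is named for them. NEMOΔhepa mice lack NEMO and KEAP1Δhepa mice lack KEAP1 in hepatocytes through the transgene Alfp-Cre, which is driven by albumin and alpha-fetoprotein regulatory sequences. The double knockout, NEMOΔhepa/KEAP1Δhepa, came from crossing these lines. All 3 knockout genotypes therefore carry Cre and the controls are not stated to, and the other cells of the liver keep both genes. If the controls lack Cre, any effect of Cre is part of each single knockout minus control. It cancels in double knockout minus single knockout, so it would enter the interaction with its sign reversed. No group is stated to carry Cre with both genes intact, so an effect of Cre was not tested apart from the interaction. Each array is labelled as a replicate of its genotype with no animal number, so p-values measure the spread between these samples.

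NEMO is the product of Ikbkg and the scaffold of the IKK complex, which activates the transcription factor NF-kB. Mice without it in hepatocytes are known for hepatocyte death followed by inflammation, compensatory proliferation and fibrosis. KEAP1 marks the transcription factor NRF2, encoded by Nfe2l2, for degradation, so that its loss releases NRF2 to drive antioxidant and detoxification genes such as Nqo1, Cbr3, Gpx2 and Slc7a11.

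Both arrays numbered 3 in the groups at the ends of the design stood apart. The array labelled liver control 3 had a mean of 10.18 over 40 NRF2 targets (log2 level), against 8.18 and 8.53 on controls 1 and 2 and 10.16 to 10.21 on the double knockouts. Liver double knockout 3 had a mean of 7.62 over 14 fat cell markers, against 5.04 to 5.58 on the other 11 arrays. Adipoq was at 7.17 and Ucp1 at 6.74 on it, and 14 bile duct markers averaged 6.43, against 4.52 to 5.54 elsewhere. Both enter the interaction with a positive sign, so results were computed with 12 arrays (n = 3 per group) and with the 10 that remain without them (n = 2 controls and 2 double knockouts, 3 of each single knockout). For the NRF2 targets the smaller set of arrays is not an independent choice, because the control was doubted for their levels. The same holds for the fat cell markers, for whose levels double knockout 3 was doubted. The mean over 21 hepatocyte identity genes was lowest on double knockout 3, at 9.37, and highest on controls 1 and 2, at 10.0 and 10.01. It was 9.66 on the array labelled liver control 3. Control 1, which was kept, also differed from the rest. Its mean over 18 endothelial markers was 6.65, against 7.22 to 7.58 on the other 11 arrays. In the 12-array fit with array weights, which are lower for more variable arrays, control 1 had 0.594. The array labelled liver control 3 had 0.469, double knockout 3 had 0.355 and every other array had at least 1.027.

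The deleted genes were read as a check of the labels. Ikbkg was at 6.86 and 6.81 on controls 1 and 2 and at 6.40 on the array labelled liver control 3, between 6.14 and 6.26 in NEMO knockouts, between 6.96 and 7.20 in KEAP1 knockouts and between 6.18 and 6.47 in double knockouts. Keap1 was at 6.04 and 6.35 on controls 1 and 2 and at 5.88 on the array labelled liver control 3. It was between 5.81 and 6.16 in NEMO knockouts, 5.38 and 5.76 in KEAP1 knockouts and 5.75 and 5.93 in double knockouts. For Ikbkg, controls 1 and 2 and the KEAP1 knockouts lay above every array of the genotypes without NEMO, while the array labelled liver control 3 lay within the range of the double knockouts. Keap1 in the double knockouts overlapped the NEMO knockouts. For Keap1 the array labelled liver control 3 lay within the ranges of both, and controls 1 and 2 lay above the double knockouts. No source used here states whether the probes fall in the deleted exons. The interaction was -0.16 ± 0.17 (SE) for Ikbkg and 0.48 ± 0.23 for Keap1 with 10 arrays, and -0.31 ± 0.19 and 0.36 ± 0.21 with 12, none of them called.

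The promoter of Nfe2l2 is shown because Nfe2l2 is the transcript of the factor that KEAP1 controls and is itself among the genes with an interaction, and that of Ikbkg because it is the deleted gene. The capitals mark the core of the antioxidant response element to which NRF2 binds with small MAF proteins, TGACNNNGC read on either strand. The sequences are from RefSeq (GRCm38.p6), 5′ to 3′ on the strand of the gene.
Nfe2l2 (chr2:75704880-75704913, minus strand): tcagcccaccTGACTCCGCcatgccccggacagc
Ikbkg (chrX:74424559-74424597, plus strand): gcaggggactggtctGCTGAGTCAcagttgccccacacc
In Nfe2l2 the core ends 231 bases before the start site, and in Ikbkg it lies on the opposite strand and ends 29 bases before it. Of 39 genes looked up, 27 had a promoter in the table, and 4 of those (14.8%) held the core in the 250 bases before a start site, the others being Uck2 and Ccr3. Of all genes with a promoter there, 11.52% held it. A match describes the letters in the window and not a site in use.

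With 12 arrays limma called 2 genes of 18820 (0.0106%) at an adjusted p under 0.05, both below 0, while 952 had an unadjusted p under 0.05. They were Akr1c18 and Gldn, which rose with NEMO loss alone and stayed near the control level in the double knockout. Without the doubted arrays 65 genes were called (0.345%), 53 below 0 (0.282%) and 12 above 0 (0.0638%), with 2640 at an unadjusted p under 0.05. Centring each array on its median moved the median interaction of all genes from 0.027 to 0.246, and the 10 arrays then gave 51 genes above 0 and 41 below, so the split of directions depends on that scaling. It adds 0.219 to every gene, which turns the sign of the median of 13 of the 43 gene lists below with 10 arrays, NRF2 targets, fat cell markers, T and natural killer cell markers, lipogenesis and fatty acid oxidation among them, and leaves the cell cycle, p53, matrix, stellate cell, macrophage, MHC class II, cytoskeleton and bile duct lists below 0. With 12 arrays it adds 0.083 and turns 9 of 43, bile duct markers among them. All 65 genes had the same sign with 12 arrays, where Akr1c18 and Gldn were the 2 called. The members just inside the threshold were Mpv17l, Grhl1 and Knstrn, with adjusted p from 0.0457 to 0.048 (limma), and those just outside were Exoc4, Itga8 and Lrp4, from 0.0516 to 0.0519.

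Among the 53 genes below 0 the pattern was a change with NEMO loss that was smaller where KEAP1 was deleted. The change with NEMO loss had a median of 1.65 with KEAP1 present (range 0.54 to 4.39) and 0.16 with KEAP1 deleted (range -1.26 to 1.17), over 10 arrays. The change with KEAP1 loss had a median of 0.74 with NEMO present and -0.69 with NEMO deleted. These medians describe genes chosen by the same contrast and test nothing. Across all genes the 2 changes with NEMO loss, which share no array, correlated at r = 0.428 over 10 arrays and 0.548 over 12; genes are not independent, so no p is given. Their standard deviations over genes were 0.437 with KEAP1 present and 0.23 with KEAP1 deleted over 10 arrays, and 0.355 and 0.265 over 12. NEMO loss had 2265 genes called (12%) with KEAP1 present and 10 (0.0531%) with KEAP1 deleted over 10 arrays, and 251 (1.33%) and 0 over 12, where 1429 of the latter had an unadjusted p under 0.05. KEAP1 loss had 990 (5.26%) with NEMO present and 651 (3.46%) with NEMO deleted over 10 arrays, and 0 and 197 (1.05%) over 12, where 1447 of the former had an unadjusted p under 0.05 (limma). A difference between such counts is not itself tested by them, and the interaction is that test. The changes with the other gene present are taken against controls, so they may include an effect of Cre. The part of Cre in these counts was not tested.

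**Figure D1:**
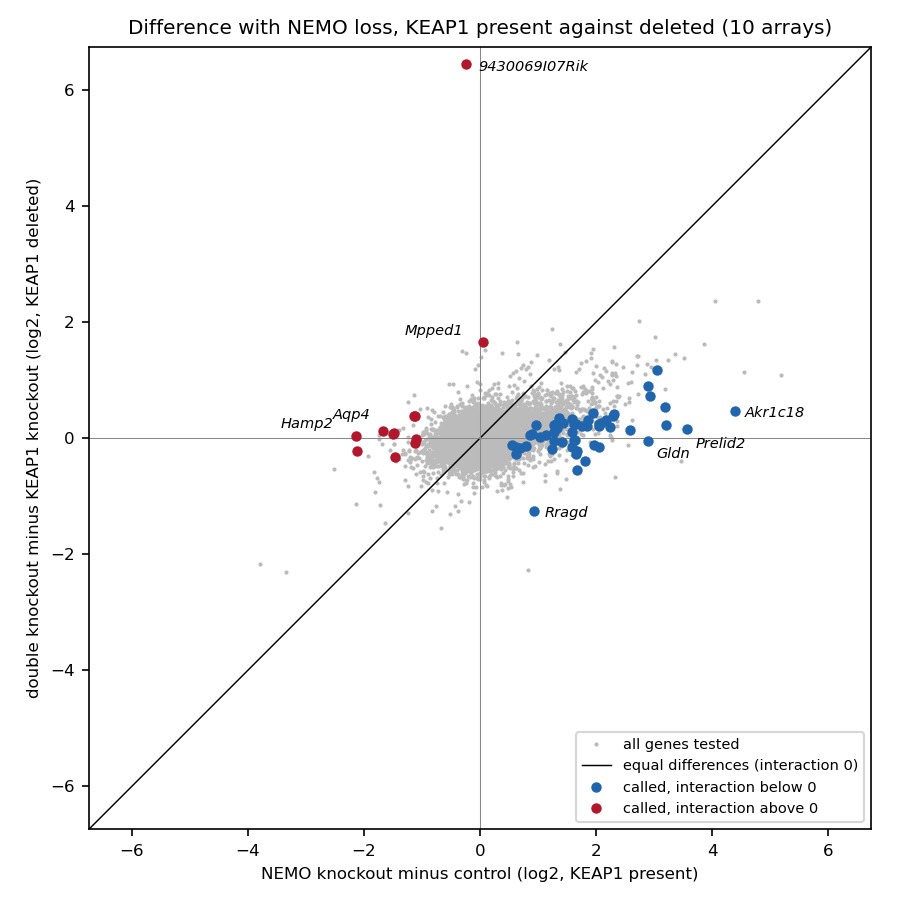
Each point is a gene, with the log2 difference of NEMO knockout minus control on the horizontal axis and of double knockout minus KEAP1 knockout on the vertical axis, from the 10 arrays without the doubted ones. The diagonal is an interaction of 0; the 53 called genes below it (blue) spread along the horizontal axis between 0.54 and 4.39, and the 12 above it are red.

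The called genes fall into groups by which genotype stood farthest from the mean of the other 3 over 10 arrays. In 24 genes it was the NEMO knockout, higher than the rest. In 28 it was the control, lower than the rest, and in 8 the control was higher than the rest. The control is also the genotype not stated to carry Cre, and the part of Cre in these genes was not tested. The remaining 5 were Mpv17l and Snora69, lowest in the NEMO knockout, Mpped1 and the unnamed transcript 9430069I07Rik, highest in the double knockout, and Rragd, highest in the KEAP1 knockout.

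The group with the NEMO knockout farthest from the rest, and higher, held the largest negative interactions. The other 3 genotypes were not always alike in it. Over 10 arrays their means spread over 0.059 in Gldn, 1.108 in Prelid2, 1.481 in Mtmr11 and 1.794 in Ifi27l2b. In Ifi27l2b KEAP1 loss alone raised the level by 1.27, and the double knockout was 1.79 above control. Akr1c18, an aldo-keto reductase that inactivates progesterone, was at 7.97, 7.32 and 8.48 in NEMO knockouts. It was at 3.56, 3.51 and 3.51 in controls, 3.19, 2.99 and 2.66 in KEAP1 knockouts and 3.39, 3.45 and 4.10 in double knockouts. The NEMO knockouts did not overlap the other 3 genotypes. The interaction was -3.70 ± 0.38 with 12 arrays (adjusted p = 0.00444, limma) and -3.92 ± 0.39 with 10 (adjusted p = 0.00128). NEMO loss raised Akr1c18 by 4.39 ± 0.27 with KEAP1 present, and the change was 0.47 ± 0.27 with KEAP1 deleted.

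Gldn encodes gliomedin, an extracellular protein known from the nodes of myelinated nerves. It was at 6.08, 5.29 and 5.62 in NEMO knockouts and between 2.52 and 3.02 on the other 9 arrays, with no overlap. Its interaction was -3.11 ± 0.28 with 12 arrays (adjusted p = 0.00218, limma) and -2.95 ± 0.32 with 10 (adjusted p = 0.00183). In cultured hepatocytes, whose arrays the liver fits do not use, it was -3.14 ± 0.39 (12 arrays, adjusted p = 0.0208).

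Ccnd1 encodes cyclin D1, which drives cells from G1 into the cell cycle. It was at 9.71, 9.07 and 9.67 in NEMO knockouts, against 6.20, 6.35 and 6.97 in controls, 6.25, 6.66 and 6.78 in KEAP1 knockouts and 6.86, 6.72 and 8.10 in double knockouts. The 2 highest of the arrays outside the NEMO knockouts were the doubted ones, and no array reached the NEMO knockouts. The interaction was -2.98 ± 0.27 with 10 arrays (adjusted p = 0.00128, limma) and -2.31 ± 0.47 with 12 (adjusted p = 0.28).

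Nfe2l2 followed the same order at smaller size. It was at 9.56, 9.40 and 9.61 in NEMO knockouts, at 8.35, 8.42 and 8.50 in controls, at 8.43, 8.47 and 8.34 in KEAP1 knockouts and at 8.45, 8.48 and 8.83 in double knockouts. The NEMO knockouts lay above every other array. The interaction was -1.08 ± 0.13 with 10 arrays (adjusted p = 0.00331, limma) and -0.92 ± 0.15 with 12 (adjusted p = 0.144). With KEAP1 loss the NRF2 transcript was at 0.03 ± 0.09 where NEMO was present and fell by 1.06 ± 0.09 where it was absent (10 arrays). Of 16 measured genes of the IKK and KEAP1 pathways it was the 1 called with 10 arrays, where 0.345% of all genes were. The median interaction of that list was 0.011, against 0.027 over all genes.

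Acot2, a mitochondrial thioesterase and PPARalpha target, was at 9.52, 9.35 and 9.58 in NEMO knockouts. Elsewhere it ranged from 7.36 on control 1 to 8.60 on double knockout 3. Its interaction was -2.20 ± 0.21 with 10 arrays (adjusted p = 0.00128, limma) and -1.81 ± 0.29 with 12 (adjusted p = 0.144). Spon2, a secreted matrix protein, was at 7.53, 7.22 and 7.79 in NEMO knockouts and between 5.72 and 6.23 on the other 9, which gave -1.49 ± 0.21 with 10 arrays (adjusted p = 0.0122) and -1.40 ± 0.21 with 12 (adjusted p = 0.107). These 2 genes, too, had NEMO knockouts apart from all other arrays.

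Prelid2 was at 6.56, 6.75 and 6.94 in NEMO knockouts and between 2.96 and 5.20 elsewhere. Ifi27l2b, of an interferon-inducible family, was at 9.08, 8.33 and 9.07 in NEMO knockouts and between 5.63 and 7.65 elsewhere. With 10 arrays their interactions were -3.41 ± 0.56 and -2.66 ± 0.28 (adjusted p = 0.0287 and 0.00159, limma). Sdr16c5, a retinol dehydrogenase (-2.21 ± 0.34), Mtmr11 (-2.21 ± 0.28), the costimulatory ligand Icosl (-2.08 ± 0.33), the B cell adaptor Blnk (-1.92 ± 0.26) and the tubulin Tuba8 (-1.67 ± 0.29) were called as well. In each of these 7 genes the NEMO knockouts lay above all other arrays. These genes and those above were chosen by their interaction, which favours such a separation. How many of all genes show it was not counted. With 12 arrays their interactions ran from -1.42 for Mtmr11 to -3.07 for Prelid2 and none was called (adjusted p from 0.144 to 0.865, limma).

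With 12 arrays the 10 genes with the smallest p were Gldn and Akr1c18, then Spon2, Acot2, Uck2, Nfe2l2, Ccr3, Sdr16c5, Sntb1 and Tuba8, which were not called (adjusted p from 0.107 to 0.149, limma). Uck2, a kinase that salvages uridine and cytidine, ran against the others. It was at 6.01, 6.29 and 6.18 in NEMO knockouts and between 6.94 and 7.30 on the other 9 arrays, with an interaction of 0.85 ± 0.14 with 12 arrays and 0.78 ± 0.15 with 10. Ccr3, a chemokine receptor of eosinophils, was at 2.57, 2.90 and 2.65 in double knockouts and at 3.61, 3.73 and 3.56 in NEMO knockouts (-1.29 ± 0.22 with 12 arrays), levels that are low on this scale. Sntb1, a syntrophin, was at 10.35, 10.34 and 10.29 in NEMO knockouts and at 9.36 to 9.79 elsewhere (-0.78 ± 0.13).

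**Figure D2:**
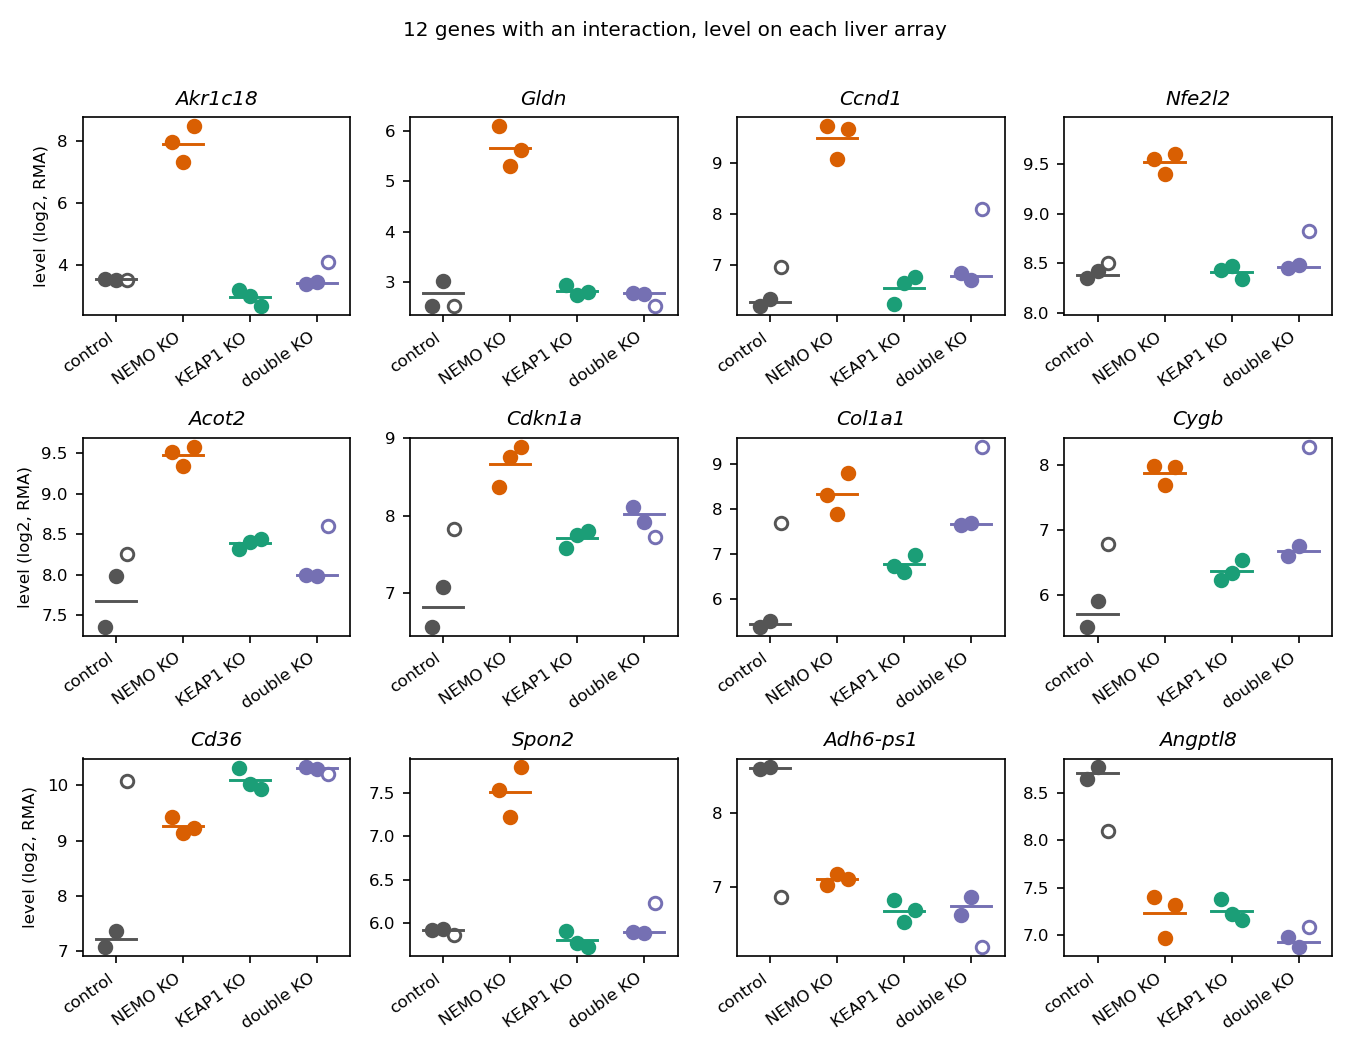
Level of 12 called genes (log2, vertical axis) on each liver array by genotype; a point is an array, open points are the array labelled liver control 3 and double knockout 3, and lines are means without those. In Akr1c18, Gldn, Ccnd1, Nfe2l2, Acot2 and Spon2 the NEMO knockouts stand apart from the other 9 arrays, and in Col1a1, Cd36 and Adh6-ps1 controls 1 and 2 do. All 12 were picked from the called genes, which favours such gaps.

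The second group, with controls 1 and 2 below all 3 knockout genotypes, rests on which arrays are kept. In all 28 of its genes the array labelled liver control 3 was nearer to the mean of double knockouts 1 and 2 than to that of controls 1 and 2, against 12154 of all 18820 genes (64.6%). The 28 were picked with controls 1 and 2 apart from the knockouts, which favours this. The share over all genes, picked by no such gap, is therefore not a like baseline. In 12 of the 28, double knockout 3 was more than 1 above double knockouts 1 and 2, against 591 of all genes (3.14%). Their median interaction was -1.44 with 10 arrays and -0.61 with 12. In the 24 genes with the NEMO knockout high the same medians were -1.84 and -1.46, and the control was nearer to the double knockouts in 17. The part of these arrays in the interaction was not tested beyond leaving them out.

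Cd36, a fatty acid importer, belongs to this group. It was at 7.07 and 7.37 on controls 1 and 2 and at 10.08 on the array labelled liver control 3. NEMO knockouts were at 9.42, 9.14 and 9.22, KEAP1 knockouts at 10.31, 10.03 and 9.93 and double knockouts at 10.32, 10.29 and 10.21. Each loss alone raised it, by 2.04 ± 0.13 and 2.87 ± 0.13 with 10 arrays, and the double knockout was close to the KEAP1 knockout. The interaction was -1.83 ± 0.18 (adjusted p = 0.00128, limma), and -0.90 ± 0.79 with 12 arrays (adjusted p = 0.944).

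Col1a1, a chain of fibrillar collagen I, was at 5.38 and 5.52 on controls 1 and 2, at 7.70 on the array labelled liver control 3, at 8.33, 7.89 and 8.81 in NEMO knockouts, at 6.74, 6.61 and 6.99 in KEAP1 knockouts and at 7.66, 7.70 and 9.39 in double knockouts. The double knockouts 1 and 2 lay below all NEMO knockouts and double knockout 3 above them. The interaction was -1.99 ± 0.29 with 10 arrays (adjusted p = 0.0175, limma) and -0.67 ± 0.80 with 12 (adjusted p = 0.955).

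Among the 8 genes with controls highest, Angptl8, a secreted inhibitor of lipoprotein lipase activity, was at 8.65, 8.77 and 8.10 in controls. It was at 7.40, 6.97 and 7.32 in NEMO knockouts, 7.38, 7.22 and 7.16 in KEAP1 knockouts and 6.98, 6.87 and 7.08 in double knockouts, and fell by 1.47 ± 0.13 with NEMO loss and by 1.45 ± 0.13 with KEAP1 loss against controls 1 and 2. The interaction was 1.15 ± 0.19 with 10 arrays (adjusted p = 0.0276, limma) and 1.00 ± 0.23 with 12 (adjusted p = 0.449). Adh6-ps1, annotated as an alcohol dehydrogenase pseudogene (1.57 ± 0.16), the water channel Aqp4 (1.79 ± 0.20), the glycosyltransferase B3galt1 (1.91 ± 0.27), the hepcidin paralog Hamp2 (2.17 ± 0.39), Sntg2 (1.52 ± 0.24), Sprr2b (1.57 ± 0.28) and the P450 enzyme Cyp2u1 (1.04 ± 0.17) completed the group. With 12 arrays these 7 ran from 0.36 ± 0.43 for Cyp2u1 and 0.80 ± 0.52 for Adh6-ps1 to 1.41 ± 0.45 for B3galt1, with Hamp2 at 1.29 ± 0.62, and none was called (adjusted p from 0.50 to 0.955, limma). Probe sets of Hamp2 and Adh6-ps1 may also detect RNA of their close relatives.

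Genes outside these 3 groups were few. Mpv17l, a protein of peroxisomes and mitochondria, was at 5.40, 5.42 and 5.35 in NEMO knockouts and between 6.19 and 6.98 elsewhere, with double knockouts 1 and 2 at 6.72 and 6.94. Its interaction was 1.08 ± 0.20 with 10 arrays (adjusted p = 0.0457, limma) and 0.93 ± 0.25 with 12 (adjusted p = 0.593). Rragd, a Rag GTPase of amino acid sensing, was at 5.50, 5.14 and 6.20 in KEAP1 knockouts and 4.30, 4.42 and 5.95 in double knockouts, with an interaction of -2.19 ± 0.38 with 10 arrays (adjusted p = 0.0378, limma) and -1.495 ± 0.56 with 12 (adjusted p = 0.863). Mpped1 was at 6.11, 6.19 and 5.34 in double knockouts, but also at 6.07 on the array labelled liver control 3, against 3.65 and 3.84 on controls 1 and 2.

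**Figure D3:**
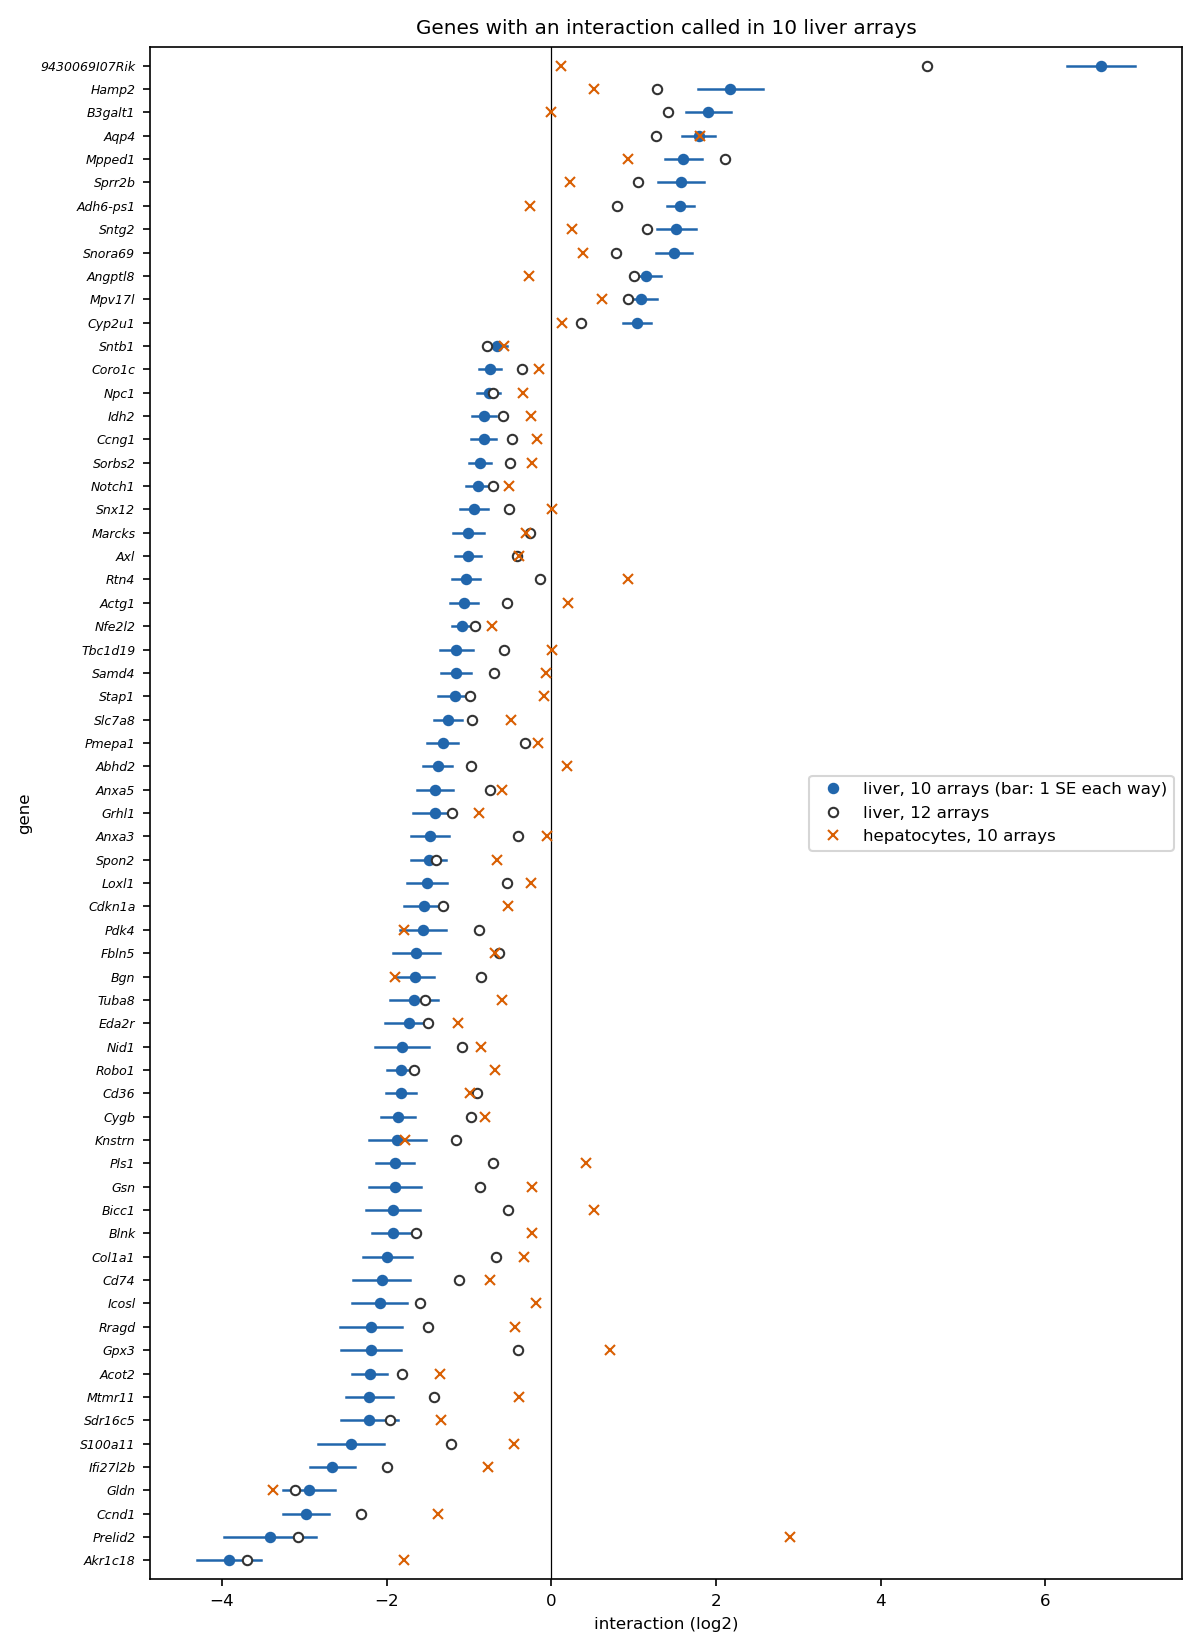
Interaction (log2, horizontal axis) of the 65 genes called with 10 liver arrays: filled points with bars of 1 standard error each way are the 10 arrays, open points the 12 arrays, and crosses the same contrast in 10 hepatocyte arrays. All open points lie on the same side of 0 as the filled ones, most of them nearer to 0, and 44 of the 53 negative genes are also below 0 in hepatocytes.

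Of all genes 0.0106% were called with 12 arrays and 0.345% with 10. Of 40 measured NRF2 targets 0 were called by limma with either set of arrays, which beside those shares says little about additivity in them. Their median interaction was 0.186 with 12 arrays, 27 of them above 0, and -0.155 with 10 arrays, 13 of them above 0, so its sign turned with the doubted arrays and, with 10 arrays, with the centring. With 10 arrays the median difference with KEAP1 loss was 1.19 with NEMO present and 0.999 with NEMO deleted. Nqo1, a quinone reductase, was at 4.71, 5.37 and 9.17 in controls, 5.95, 5.84 and 5.58 in NEMO knockouts, 9.01, 9.0 and 8.60 in KEAP1 knockouts and 9.25, 9.36 and 9.25 in double knockouts. The third control value is that of the doubted array, and the interaction was 1.04 ± 1.14 with it and -0.32 ± 0.27 without the doubted arrays. The carbonyl reductase Cbr3 (-0.21 ± 0.23) and the glutathione peroxidase Gpx2 (-0.67 ± 0.28) likewise missed the threshold with 10 arrays, and were at 1.90 ± 1.82 and 1.67 ± 1.87 with 12.

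Slc7a11, the cystine importer, leaned the other way with 10 liver arrays. It was at 2.63, 2.42 and 9.29 in controls, 3.15, 2.83 and 2.70 in NEMO knockouts, 7.82, 8.53 and 8.50 in KEAP1 knockouts and 9.87, 9.62 and 10.23 in double knockouts. The double knockouts lay above all KEAP1 knockouts. The interaction was 1.09 ± 0.30 with 10 arrays (adjusted p = 0.136, limma) and 3.51 ± 1.85 with 12 (adjusted p = 0.936), and in hepatocytes it was 3.54 ± 0.53 (adjusted p = 0.0379, 12 arrays). There the double knockouts were at 9.14, 9.88 and 8.31 and the KEAP1 knockouts at 4.99, 6.43 and 5.57, with controls and NEMO knockouts between 2.84 and 3.40. A positive value in hepatocytes was not particular to Slc7a11. Over the same 12 hepatocyte arrays the interaction was 2.32 for Gpx2, 1.93 for Nqo1 and 1.30 for Cbr3, none called. The median of the NRF2 targets there was 0.296. In related lists 2 genes were called with 10 arrays, where 0.345% of all genes were. Gpx3, a secreted glutathione peroxidase, was the 1 called of 17 glutathione genes (-2.19 ± 0.36), and Idh2, a mitochondrial source of NADPH, the 1 of 13 genes of the pentose phosphate pathway and NADPH supply (-0.82 ± 0.14). With 12 arrays Gpx3 was at -0.40 ± 1.15 and Idh2 at -0.59 ± 0.22 (adjusted p = 0.985 and 0.874, limma). Gpx3 was at 9.64 on double knockout 3, against 5.95 and 5.84 on the other double knockouts.

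Most genes of the cell cycle list lay below 0, and Ccnd1 was the 1 of that list called. Of 27 cell cycle genes 1 was called with 10 arrays, against 0.282% of all genes called below 0, 25 were below 0 and the median was -1.0, against 0.027 over all genes; with 12 arrays 24 were below 0 and the median was -0.64. The median difference with NEMO loss was 1.98 with KEAP1 present and 0.76 with KEAP1 deleted, over 10 arrays. The list mean was 5.66, 5.71 and 6.67 in NEMO knockouts and 5.07, 5.38 and 5.48 in double knockouts. In controls it was 3.98, 4.17 and 5.24, and in KEAP1 knockouts 4.48, 4.38 and 4.45. Of 20 p53 targets 3 were called with 10 arrays, beside the same 0.282%, with a median of -0.575, and -0.41 with 12 arrays. They were the cell cycle inhibitor Cdkn1a (-1.55 ± 0.24), Ccng1, a cyclin G induced by p53 (-0.82 ± 0.15), and Eda2r, of the TNF receptor family (-1.73 ± 0.29). With 12 arrays they were at -1.31 ± 0.35, -0.48 ± 0.24 and -1.49 ± 0.28, none called (adjusted p = 0.616, 0.936 and 0.222, limma). Eda2r was at 5.06, 4.63 and 4.54 in NEMO knockouts and between 3.08 and 3.74 on the other 9 arrays.

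Matrix, stellate cell and cytoskeleton lists held 9 of the 53 calls below 0 with 10 arrays, where 0.282% of all genes were called below 0. Of 36 matrix genes 3 were called with 10 arrays, all below 0: Col1a1, the proteoglycan Bgn (-1.65 ± 0.22) and Loxl1, an enzyme that crosslinks elastin (-1.51 ± 0.24). With 12 arrays Bgn was at -0.85 ± 0.52 and Loxl1 at -0.54 ± 0.59, not called (adjusted p = 0.937 and 0.953, limma). The median was -0.94 with 10 arrays and -0.23 with 12. Of 19 stellate cell and pericyte markers Cygb, a globin typical of stellate cells, was the 1 called (-1.86 ± 0.21, and -0.97 ± 0.55 with 12 arrays, adjusted p = 0.936, limma), and the median was -0.73 with 10 arrays and -0.29 with 12. The list of 23 cytoskeleton and tubulin genes also holds annexins and S100a11. Of its members 5 were called, the tubulin Tuba8, the actin Actg1, the annexins Anxa5 and Anxa3, and S100a11. All 23 were below 0, with a median of -1.23. With 12 arrays 21 were below 0 with a median of -0.50, and these 5 ran from -0.41 for Anxa3 to -1.53 for Tuba8, none called. The list means of single arrays were high on double knockout 3. That of the matrix genes ran from 6.52 to 7.04 in NEMO knockouts and from 6.33 to 7.50 in double knockouts, and that of the stellate cell markers from 6.71 to 6.96 and from 6.44 to 7.02. In whole liver, fewer cells of a type and less RNA per cell cannot be told apart.

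Immune lists held 2 calls with 10 arrays, Cd74 and Blnk, beside 0.345% of all genes. Of 23 macrophage markers 0 were called by limma with either set of arrays, and the median was -0.67 with 10 and -0.19 with 12. Their mean level ran from 6.98 to 7.38 in NEMO knockouts and from 7.17 to 7.52 in double knockouts. Of 8 genes of MHC class II presentation Cd74, the invariant chain, was called with 10 arrays (-2.06 ± 0.35, adjusted p = 0.0315, limma) and not with 12 (-1.12 ± 0.62, adjusted p = 0.936). All 8 were below 0 with 10 arrays, with a median of -1.48, and 7 with 12, with a median of -0.79. Cd74 was at 9.25 and 9.69 on double knockouts 1 and 2 and at 10.73 on double knockout 3, against 10.78, 9.92 and 10.20 in NEMO knockouts and 8.30, 7.82 and 9.63 in controls. NF-kB targets had 0 of 27 called with either set and a median of -0.26 with 10 arrays and -0.19 with 12. In the list of T and natural killer cells the median was -0.22 with 10 arrays and -0.05 with 12, and in that of neutrophils 0.22 and 0.37, with 0 of 15 and 0 of 13 called. Of 10 B and plasma cell markers Blnk was the 1 called with 10 arrays, with a median of -0.11, and -0.04 with 12.

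Bile duct markers and fat cell markers were high on double knockout 3. Of all genes 0.345% were called with 10 arrays and 0.0106% with 12. Of 14 bile duct markers all were below 0 with 10 arrays, 0 called, with a median of -0.69, and 6 were above 0 with 12 arrays, with a median of -0.08. Krt7, a bile duct keratin, was at 7.81 on double knockout 3 and at most 5.01 elsewhere. Fat cell markers had a median of -0.04 with 10 arrays and 0.64 with 12, with 0 of 14 called in both. Double knockout 3 was left out for these same markers, so that choice fixed the shift in advance.

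Metabolic lists lay near the median of all genes. Their calls below stand beside 0.345% of all genes called with 10 arrays. Of 30 genes of fatty acid oxidation and PPARalpha targets Acot2 and the pyruvate dehydrogenase kinase Pdk4 (-1.55 ± 0.28, and -0.88 ± 0.46 with 12 arrays) were called with 10 arrays, with a median of -0.13, and -0.18 with 12. Of 28 lipogenesis genes Angptl8 was called above 0 and Cd36 below 0, with a median of -0.155, and -0.22 with 12 arrays. The medians were 0.20 for 29 bile acid genes, 0.21 for 29 genes of the urea cycle and amino acid breakdown, 0.13 for 21 hepatocyte identity genes and 0.11 for 30 P450 enzymes with 10 arrays, and between -0.03 and 0.075 with 12, and of these 4 lists the 1 call was Cyp2u1. Npc1, an exporter of cholesterol from lysosomes, was the 1 called of 23 lysosome and autophagy genes (-0.76 ± 0.14, and -0.71 ± 0.14 with 12 arrays), and Hamp2 the 1 of 24 genes of metal and haem handling.

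**Figure D4:**
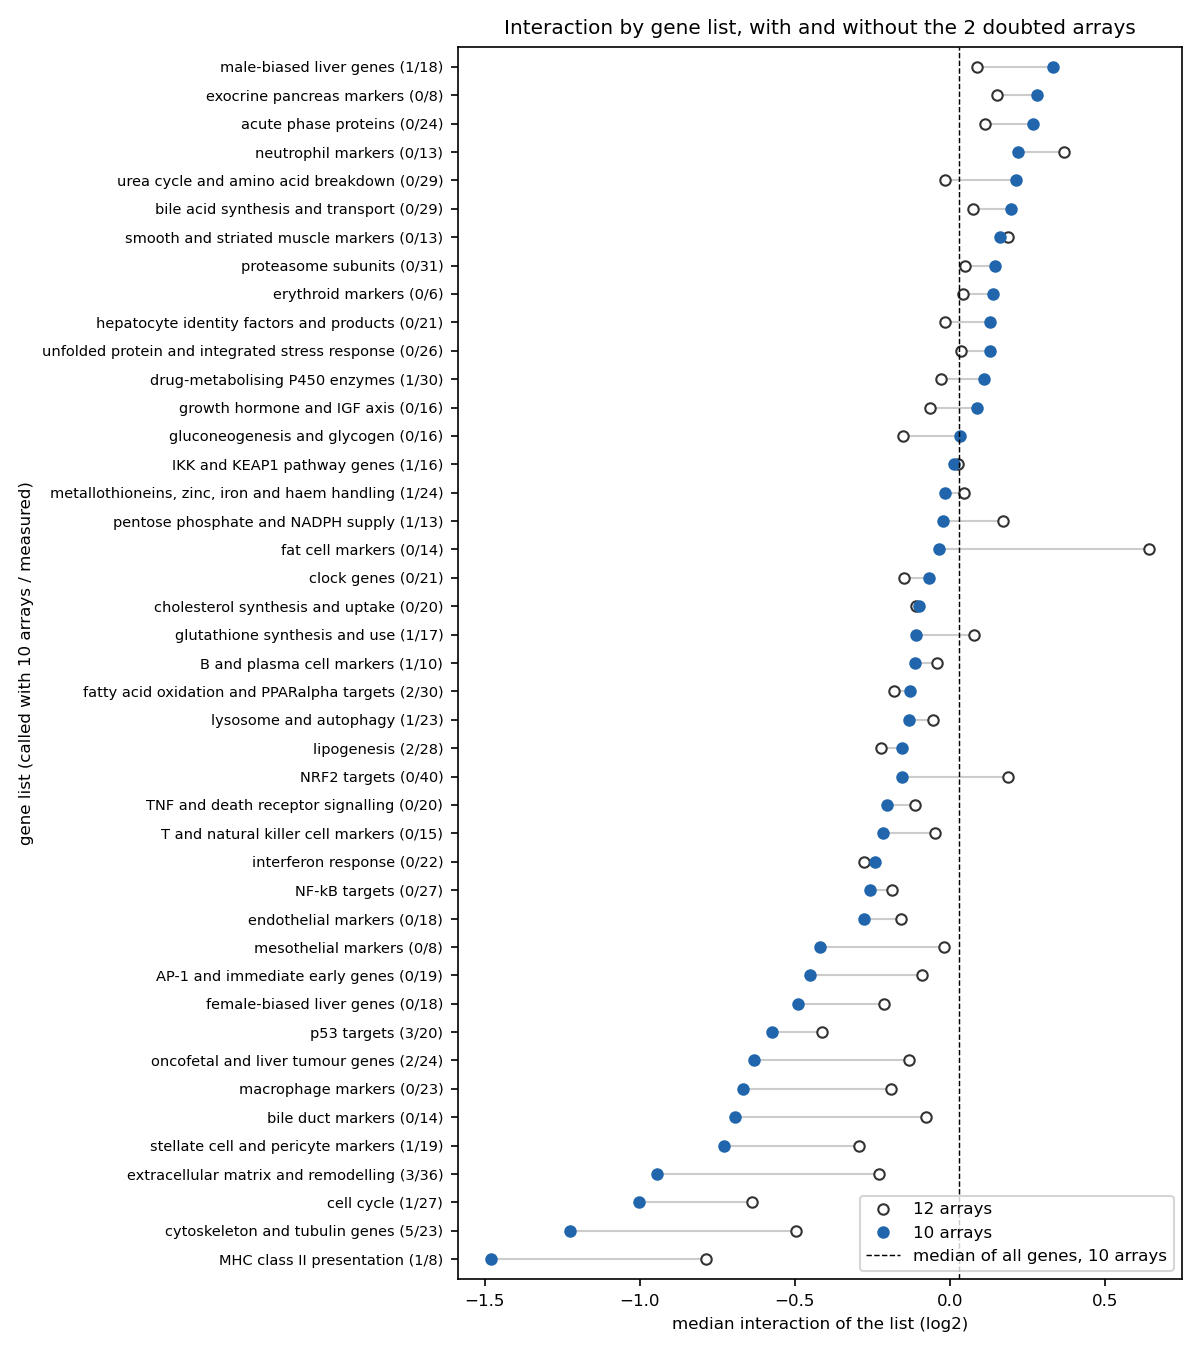
Median interaction (log2, horizontal axis) of each gene list with at least 5 measured genes, over 12 arrays (open) and 10 arrays (filled), with the number called over the number measured with 10 arrays beside its name and the median of all genes as a dashed line. The MHC class II, cytoskeleton, cell cycle and matrix lists lie lowest, at -1.48, -1.23, -1.0 and -0.94 with 10 arrays. Fat cell markers shift from 0.64 with 12 arrays to -0.04 with 10, which leave out the array doubted for these markers.

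The same contrast in cultured hepatocytes gave values from other arrays. It had 8 genes called with 12 hepatocyte arrays (0.0425%) and 22 with 10 (0.117%), the latter without hepatocyte control 1 and double knockout 3, which carried Xist against their male label. Of the 53 liver genes below 0, 41 were below 0 in hepatocytes with 12 arrays and 44 with 10, against 9538 and 9468 of all 18820 genes. Of these 53, 2 were called in hepatocytes with 12 arrays, Gldn and Bgn, the latter at -2.12. Ccnd1 was at -0.33 with 12 hepatocyte arrays and -1.38 with 10, Nfe2l2 at -0.61 and -0.72, and Akr1c18 at -1.39 and -1.78. Over all genes the interactions in liver and hepatocytes correlated at r = 0.145 with 12 arrays each and 0.143 with 10, with no p given. The difference between liver and hepatocytes was called in 3 genes over 20 arrays (0.0159%) and in 0 over 24, where 1101 had an unadjusted p under 0.05 (limma).

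The call of an interaction rested on few arrays. With 12 arrays 14 genes were called without the array labelled liver control 3, Cd36, Robo1, Ifi27l2b and Aqp4 among them, and 8 without double knockout 3, Ccnd1, Nfe2l2, Blnk, Spon2 and Acot2 among them. With 10 arrays the count ran from 13 without double knockout 1 to 246 without NEMO knockout 2. Leaving out a control or a double knockout from the 10 leaves that genotype with 1 array, which is then assumed to vary like the other genotypes. Of the 65 genes 12 kept the call without any 1 of the 10 arrays: Akr1c18, Gldn, Ccnd1, Nfe2l2, Acot2, Cd36, Cygb, Ifi27l2b, Aqp4, Adh6-ps1, the axon guidance receptor Robo1 and 9430069I07Rik. Of these, only Akr1c18 and Gldn were called with 12 arrays. There the adjusted p was 0.944 for Cd36, 0.936 for Cygb, 0.938 for Adh6-ps1 and 0.849 for 9430069I07Rik (limma). The last was at 9.45 and 8.31 on double knockouts 1 and 2 but at 2.89 on double knockout 3, which the 10 arrays leave out. Robo1 was at 7.84, 7.53 and 7.81 in NEMO knockouts and between 5.56 and 6.56 on the other 9 arrays. Its interaction was -1.82 ± 0.18 with 10 arrays (adjusted p = 0.00128, limma) and -1.66 ± 0.29 with 12 (adjusted p = 0.162).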

How the data were processed

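Total RNA was hybridised to 1-colour Affymetrix mouse arrays. The values are log2 expression per probe set, deposited by the authors after RMA per the submitters' processing notes; liver array medians lay between 4.13 and 4.23. Intensities before RMA were not used here, so low levels are compressed by background and the number of arrays limits precision.

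Of 35556 probe sets, 21218 had 1 gene symbol in the platform annotation, 1881 several and 12457 none. For the 1386 genes with several, the brightest on average over 24 arrays was kept, which left 18820 genes with no filter. Interactions and their parts were fitted with limma 3.58.1 in R 4.3.3 (eBayes with intensity trend), with Benjamini-Hochberg adjustment over 18820 genes, called at an adjusted p under 0.05, two-sided; ± is the standard error of the fit. The fit was tested on simulated data.

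The members, the 43 lists (809 of 904 symbols measured) and the doubted arrays were chosen with earlier results of these data known. Named genes were the 12 largest called interactions each way, up to 4 called per list, and preset genes; Robo1, 9430069I07Rik, Rtn4, Grhl1, Knstrn, Exoc4, Itga8, Lrp4 and Actg1 were added after their values were seen. Alternatives were array choice, replicate block, eBayes settings, array weights, filter, scaling and probe set choice.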

Additional observations from a re-analysis of the deposited data

Results flagged for a closer look

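The interaction differed between liver and hepatocytes, by a test of the difference itself over 20 arrays without the doubted ones, in 3 genes (limma), and with all 24 arrays in 0, where 1101 had an unadjusted p under 0.05. The first was 9430069I07Rik, a transcript without a gene name, at a difference of 6.56 (adjusted p = 3.4e-05). It was at 9.45 and 8.31 on liver double knockouts 1 and 2, at 2.89 on double knockout 3, at most 2.97 on the other liver arrays and between 2.04 and 2.83 in hepatocytes. The second was Prelid2, at -6.31 (adjusted p = 0.00445). Its interaction was -3.41 in liver and 2.90 in hepatocytes, where double knockouts were at 5.63, 6.44 and 4.42 and NEMO knockouts at 3.69, 4.19 and 4.34. The third was Rtn4, a reticulon of the endoplasmic reticulum, at -1.96 (adjusted p = 0.00242), from -1.04 in liver and 0.92 in hepatocytes; with 12 liver arrays its interaction was -0.14. The cause was not tested for any of them.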

How the results depend on the processing

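With 12 arrays the count of 2 called genes became 9 with array weights, 65 with 10 arrays and 0 among genes with a mean of at least 5, where neither Akr1c18 nor Gldn was tested; leaving out single arrays gave 2 to 14. With 10 arrays the 65 became 31 without the intensity trend, 126 with robust eBayes, 131 with array weights and 164 with 20 arrays of both tissues, and leaving out single arrays gave 13 to 246. In hepatocytes 8 became 22 without the doubted arrays, and for the difference between tissues 0 became 3. With the replicate number as a block the counts were 4 with 12 arrays and 55 with 10, of which 39 were among the 65. The other 26 lost the call, Angptl8, Cd74, Rragd, Hamp2, Mpv17l, Tuba8, Icosl, Loxl1, Pdk4, Idh2, Ccng1, Cyp2u1, Sntb1 and Sprr2b among them. The number was not taken as a pairing, since 11 of 18 same-number pairs of arrays had residual r above 0.1 (range -0.054 to 0.258) and not all; 7 of 12 arrays correlated best with their own number, a hint from the data and not the design. With 12 arrays, signs turned without the array labelled liver control 3 and with 10 arrays in Cbr3 (-0.33 and -0.21), Gpx2 (-0.62 and -0.67) and Nqo1 (-0.33 and -0.32), whose highest values without 1 array were 3.09, 2.82 and 1.89; in Krt7 without double knockout 3 (-0.82), with array weights (-0.41) and with 10 arrays (-0.92), up to 1.13 without double knockout 2; in Anxa3 without double knockout 1 (0.03, and -1.22 without double knockout 3); and in Gpx3 without double knockout 1 or 2 (0.20 and 0.25, and -1.65 without double knockout 3). With 10 arrays, values near 0 turned sign in Nqo1 without control 1 (0.01, and -0.64 without control 2), in Cbr3 and Ikbkg after centring (0.01 and 0.06), in Adipoq without double knockout 2, with the block and after quantile normalization (-0.04, -0.03 and -0.06, and 0.19 without double knockout 1), and in Ucp1 without control 1, KEAP1 knockout 3, NEMO knockout 1 or NEMO knockout 3, with the block and after quantile normalization (-0.07, -0.11, -0.07, -0.04, -0.19 and -0.07). The alternatives for single genes with 10 arrays were chosen after seeing the data. The cause of these changes was not tested.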
